A study of Rattus norvegicus with 6 samples.

Results

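The genes examined here are the ligands, receptors and intracellular adaptors of the tumour necrosis factor (TNF) superfamily in the rat brain after hypoxia-ischemia. They were selected by name, as the rows whose symbol begins with Tnfrsf, Tnfsf or Tnfaip, or with Tnip, Traf or Ripk and a digit, together with Tnf, Fas, Faslg, Cd40, Cd27, Cd70, Lta, Ltb, Ltbr, Tradd, Fadd and Tank. This gave 67 of the 19382 genes in the count table, and the rule reads only the symbol. Cd40lg, the gene of the Cd40 ligand, was also sought and had no row under that symbol. RNA was sequenced from brain tissue in 6 libraries. The 3 hypoxia-ischemia (HI) libraries came from Sprague-Dawley rats that underwent 2.5 h of ischemia and hypoxia when 7 days old, which models perinatal brain injury, and the 3 control libraries from rats labelled as having had the control treatment. The labels name no transgene or drug in either group. They give neither the brain region, the time from injury to sampling, the age of the controls, nor whether each library was 1 animal, so the p-values below reflect the variation among these 6 libraries, part of which may be technical.

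Ligands of this family are mostly trimeric proteins on the surface of immune cells, and many are shed. Their receptors fall into those with a death domain, which can assemble complexes with Tradd, Fadd and caspase-8 that kill the cell, and those that bind Traf proteins directly and activate NF-kB and stress kinases. When caspase-8 is blocked, Ripk1 and Ripk3 can instead start necroptosis, a lytic form of death. In the brain, microglia are a main source of Tnf, and the receptors are carried by glia, neurons and vessels.

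Library totals ran from 14324303 to 14927469 estimated reads in HI and from 13922663 to 14692505 in the controls. With these totals 3 reads, up to which a listed 0 is compatible, corresponded to 0.182 to 0.201 CPM (counts per 1e+06 reads) in HI and 0.221 to 0.227 CPM in the controls. CPM were computed with TMM-scaled library sizes, and such limits cover counting error only. Libraries of 1 group differed in several marker genes. Summed levels of 8 choroid plexus markers were 180, 8116 and 15266 CPM in HI 1, 2 and 3, against 14.1, 2151 and 5.39 CPM in controls 1, 2 and 3, and these markers varied widely within both groups. Levels of the summed neuron markers Rbfox3, Snap25 and 8 others lay between 2840 and 5211 CPM in HI and between 7210 and 8780 CPM in the controls, and astrocyte markers between 1629 and 2239 CPM in HI and between 972 and 1517 CPM in the controls, and both lists were read in every library. Slc17a7, a marker of cortical excitatory neurons, stood at 2.54, 63.3 and 51.1 CPM in HI, against 474, 511 and 426 CPM in the controls. Gad1, a marker of inhibitory neurons, stood at 365, 264 and 163 CPM in HI, against 113, 143 and 350 CPM in the controls, and Gad2 was likewise highest among the controls in control 3. The part of these differences in the family's values was not tested.

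Most of the family genes called as changed were receptors, although this share differed between fits. Of the 46 family genes with enough reads to be tested, 7 rose in HI and 1 fell (quasi-likelihood F test of edgeR, with p-values adjusted by Benjamini-Hochberg over 14959 genes and a threshold of 0.05). Those that rose were the death receptors Fas and Tnfrsf1a, the receptors Tnfrsf12a, Tnfrsf1b and Ltbr, the necroptosis kinase Ripk3 and the NF-kB inhibitor Tnip2. The adaptor Traf4 fell. Higher calls made up 15.2% of the tested family genes, against 6.83% of all tested genes, and lower calls 2.17%, against 7.04%. The median log2 fold change was 0.55 in the family and 0.04 over all tested genes, and 37 of the 46 lay above 0 (80.4%, against 53.3% of all tested genes). The filter admits genes that are read only in HI, and Fas and Tnfsf13b had fewer than 10 reads in every control. Without these 2 genes the median was 0.52. In bulk tissue a change in the number of cells of a type and a change in RNA per cell cannot be told apart.

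**Figure D1:**
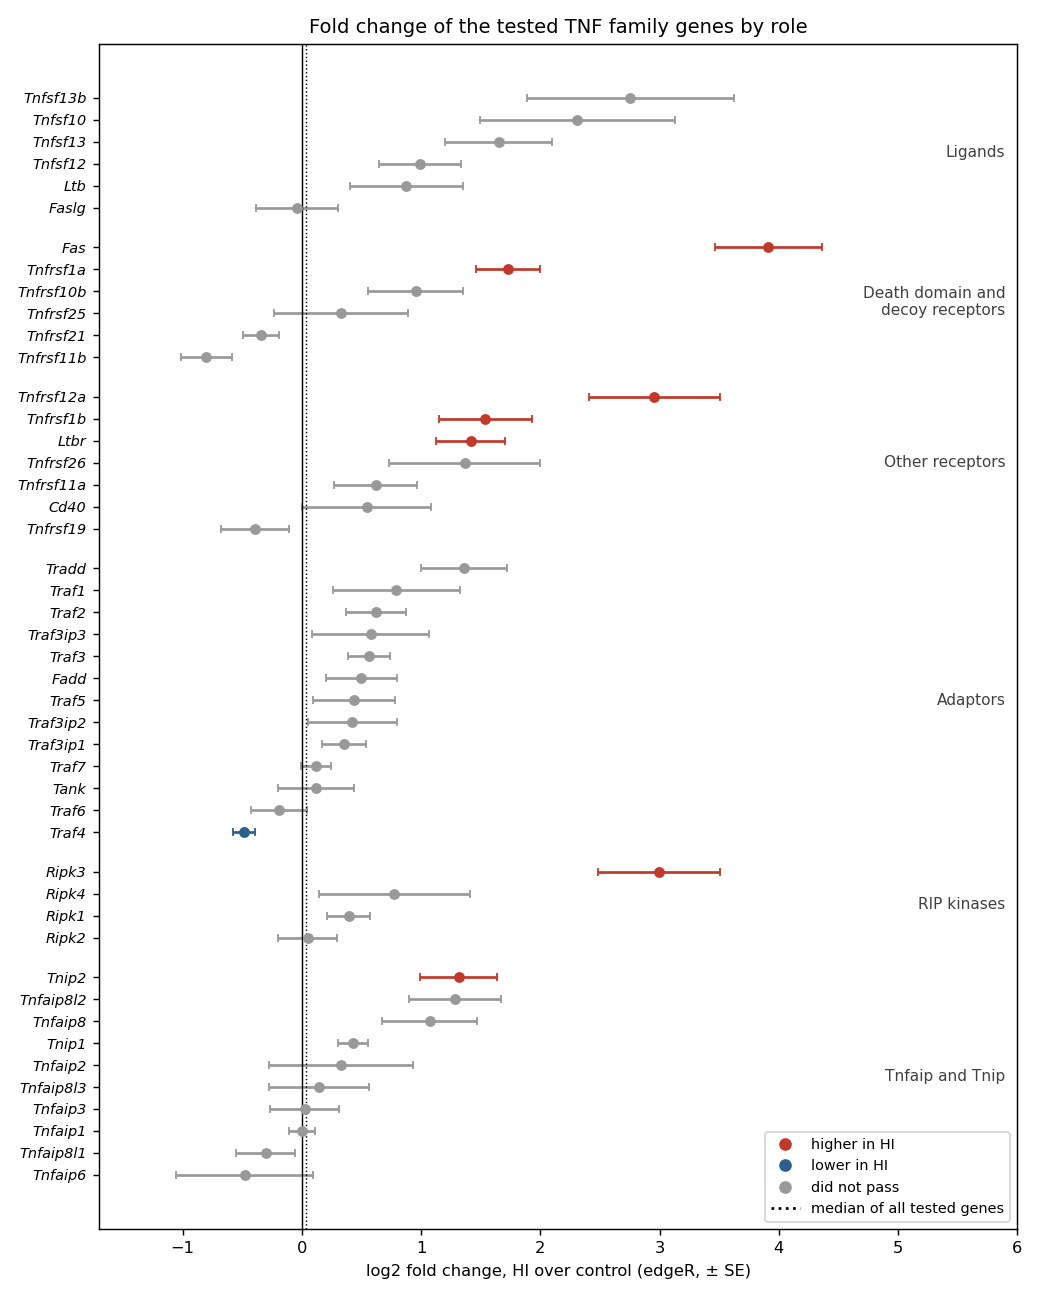
Log2 fold change of HI over control (x axis, edgeR estimate ± SE, 3 libraries per group) for the 46 tested family genes, grouped by role. Red points passed the test as higher in HI (7 genes), blue as lower (Traf4), grey did not pass, and the dotted line is the median of all tested genes at 0.04.

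In 18 of the 46 all HI libraries lay above all controls, or 39.1%, against 21.5% of all tested genes, and in 2 all HI libraries lay below, against 20.8% of all tested genes. DESeq2 gave an adjusted p to all 46 family genes tested. It called 15 of these 46 higher, against 13.9% of all genes with such a p, and 2 lower, against 14.2%. Receptors were not the majority of those calls, which also held ligands and adaptors. The number of edgeR calls depended on single libraries. Without control 1, control 2 or HI 2 no family gene passed, with 17, 16 and 15 of them at an unadjusted p below 0.05. Across all genes 0, 1 and 0 passed in these fits, so the loss was common to the table. Without HI 3 there were 2 higher and 1 lower, without control 3 there were 5 and 1, and without HI 1 there were 13 and 2. Fold changes moved less: over the 6 omissions the log2 fold change ran from 3.65 to 4.19 for Fas, from 2.71 to 3.37 for Ripk3, from 2.53 to 3.38 for Tnfrsf12a and from 1.49 to 1.97 for Tnfrsf1a. It ran from 1.34 to 1.84 for Tnfrsf1b, from 1.14 to 1.66 for Ltbr, from 1.09 to 1.53 for Tnip2 and from -0.55 to -0.45 for Traf4. Their highest edgeR adjusted p lay between 0.0924 for Fas and 0.149 for Tnfrsf1b. The split of 7 higher and 1 lower became 11 and 0 with upper-quartile factors and 12 and 0 with total counts, scalings that put the median of all genes at 0.14 and 0.23 in place of 0.04.

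**Figure D2:**
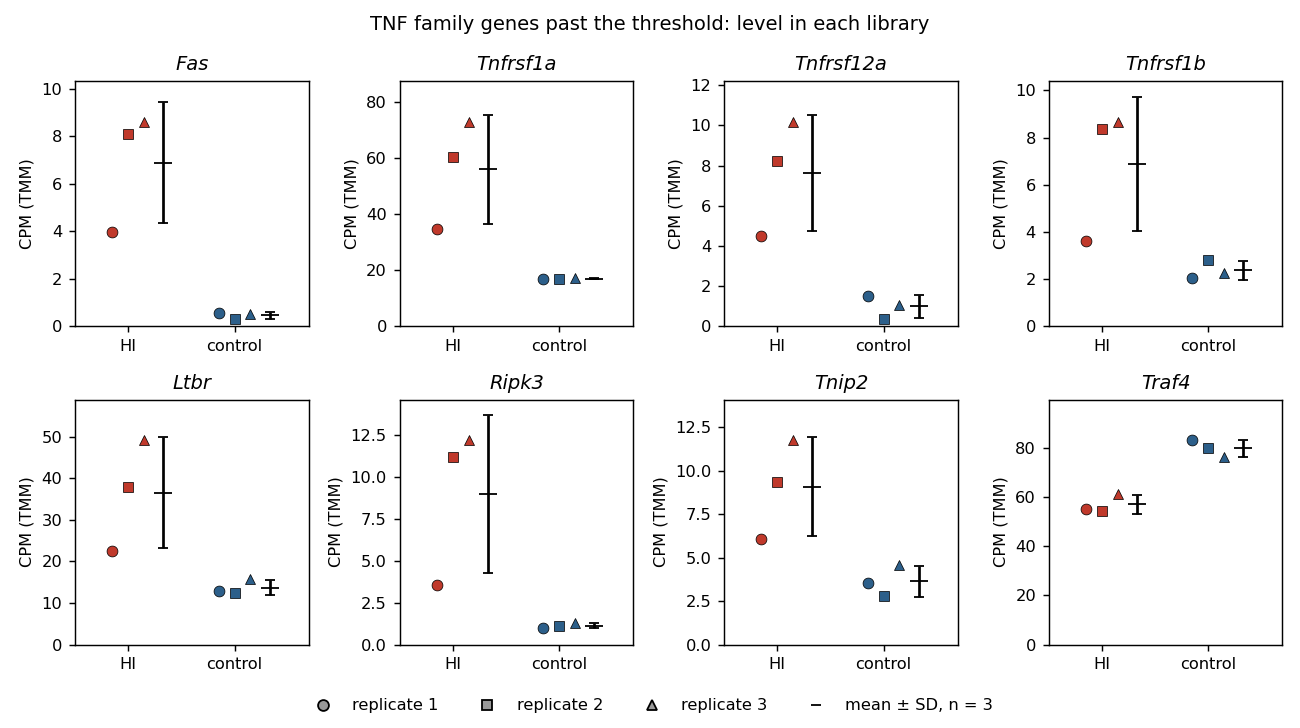
Level in CPM (y axis, from 0) of the 8 genes past the threshold in each HI (red) and control (blue) library, with the mean ± SD of 3 libraries beside the points. In each of the first 7 panels HI 1 is the lowest HI library and still lies above every control; for Traf4 all HI libraries lie below the controls.

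Among death domain receptors, Fas gave the largest fold change in the family. Fas, the receptor for Fas ligand that recruits Fadd and caspase-8, stood at 3.95, 8.10 and 8.60 CPM in HI 1, 2 and 3, against 0.53, 0.295 and 0.524 CPM in controls 1, 2 and 3. The groups were far apart, although the controls held only 7, 4 and 7 reads, so the size of the fold is uncertain. Fas rose 15.1-fold (log2 fold change 3.91 ± 0.45 SE, edgeR adjusted p = 0.0198). Tnfrsf1a, the main signalling receptor for Tnf, stood at 34.7, 60.3 and 72.8 CPM in HI, against 16.9, 16.7 and 17.0 CPM in the controls. Its control values were nearly identical, and the spread lay within HI. Tnfrsf1a rose 3.32-fold (log2 fold change 1.73 ± 0.27 SE, edgeR adjusted p = 0.0226).

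The ligands of both receptors had few reads, and neither was called. Faslg had 31, 28 and 27 reads in HI, against 16, 31 and 29 in the controls, and its groups overlapped (log2 fold change -0.04 ± 0.34 SE, edgeR adjusted p = 0.942). Within a library, Fas reads were 1.90, 4.50 and 5.26 times the Faslg reads in HI, against 0.438, 0.129 and 0.241 times in the controls. Tnf itself had 5, 0 and 0 reads in HI, against 2, 4 and 1 in the controls, too few to test, so a change of Tnf could not be detected with these libraries.

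The other receptors with a death domain did not pass. Tnfrsf10b, a receptor for Tnfsf10, stood at 1.54, 2.18 and 3.39 CPM in HI, against 1.51, 1.18 and 0.973 CPM in the controls. Its HI libraries all lay above the controls, HI 1 by little (edgeR adjusted p = 0.137). Tnfrsf21, a death receptor known in neurons and oligodendrocyte precursors, stood at 105, 88.6 and 79.2 CPM in HI, against 135, 104 and 107 CPM in the controls (log2 fold change -0.34 ± 0.15 SE, edgeR adjusted p = 0.156). Tnfrsf25 overlapped between the groups.

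The soluble decoy Tnfrsf11b, known as osteoprotegerin, was 1 of 2 tested family genes with all HI libraries below all controls. It stood at 6.29, 4.76 and 5.94 CPM in HI, against 8.78, 9.13 and 11.7 CPM in the controls, and missed the threshold (log2 fold change -0.80 ± 0.21 SE, edgeR adjusted p = 0.0534). Tnfrsf11a, the signalling receptor RANK whose ligand the decoy captures, stood at 4.35, 7.13 and 10.7 CPM in HI, against 5.53, 4.34 and 4.57 CPM in the controls. HI 1 lay within the controls and the other two HI libraries above them (edgeR adjusted p = 0.246). The ratio of Tnfrsf11a to Tnfrsf11b reads, which does not depend on scaling, was 0.691, 1.50 and 1.80 in HI, against 0.629, 0.476 and 0.391 in the controls. The shared ligand, Tnfsf11, had at most 1 read in any library.

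Of the 17 receptors without a death domain, 7 could be tested and 3 rose, while 6.83% of all tested genes were called higher. Tnfrsf12a, called Fn14, is the injury-inducible receptor for Tnfsf12. It stood at 4.48, 8.23 and 10.2 CPM in HI, against 1.51, 0.368 and 1.05 CPM in the controls. Every HI library was above every control, and control 2 held only 5 reads. Tnfrsf12a rose 7.77-fold (log2 fold change 2.96 ± 0.55 SE, edgeR adjusted p = 0.0274). Tnfrsf1b, the second Tnf receptor, found mainly on immune cells and endothelium, stood at 3.61, 8.35 and 8.66 CPM in HI, against 2.04, 2.80 and 2.25 CPM in the controls. HI 1 lay much nearer to the controls than the other HI libraries did. Tnfrsf1b rose 2.90-fold (log2 fold change 1.54 ± 0.39 SE, edgeR adjusted p = 0.0475). Ltbr, the lymphotoxin beta receptor, which signals to the alternative NF-kB pathway, stood at 22.5, 37.9 and 49.1 CPM in HI, against 12.9, 12.4 and 15.7 CPM in the controls. Its groups did not overlap, and Ltbr rose 2.67-fold (log2 fold change 1.42 ± 0.29 SE, edgeR adjusted p = 0.0323).

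The proportion between both Tnf receptors overlapped between the groups. Tnfrsf1b reads were 0.104, 0.139 and 0.119 of the Tnfrsf1a reads in HI, against 0.121, 0.167 and 0.132 in the controls. Cd40, a costimulatory receptor of antigen-presenting cells, stood at 0.936, 1.74 and 2.54 CPM in HI, against 1.14, 1.84 and 0.599 CPM in the controls. Its groups overlapped (edgeR adjusted p = 0.501). Tnfrsf26 and Tnfrsf19 overlapped as well and did not pass. The 10 untested receptors, which included the lymphocyte receptors Cd27, Tnfrsf13b, Tnfrsf13c and Tnfrsf17, had at most 14 reads in any library.

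No ligand passed the edgeR test as reported, but this depended on the fit. Tnfsf10, Tnfsf12, Tnfsf13 and Tnfsf13b were called higher by the DESeq2 Wald test (adjusted p = 0.0453, 0.0480, 0.0155 and 0.0319). Ltb and Faslg were not called there, and limma-voom called no ligand. In edgeR, Tnfsf13 also passed under upper-quartile scaling (edgeR adjusted p = 0.0491) and under total-count scaling (edgeR adjusted p = 0.0411). Of 16 ligand genes 10 could not be tested, with at most 21 reads in any library. The 6 that could had a median log2 fold change of 1.32, from -0.04 for Faslg to 2.75 for Tnfsf13b. Summed over the 16 genes there were 273, 375 and 555 reads in HI, against 153, 185 and 125 in the controls.

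**Figure D3:**
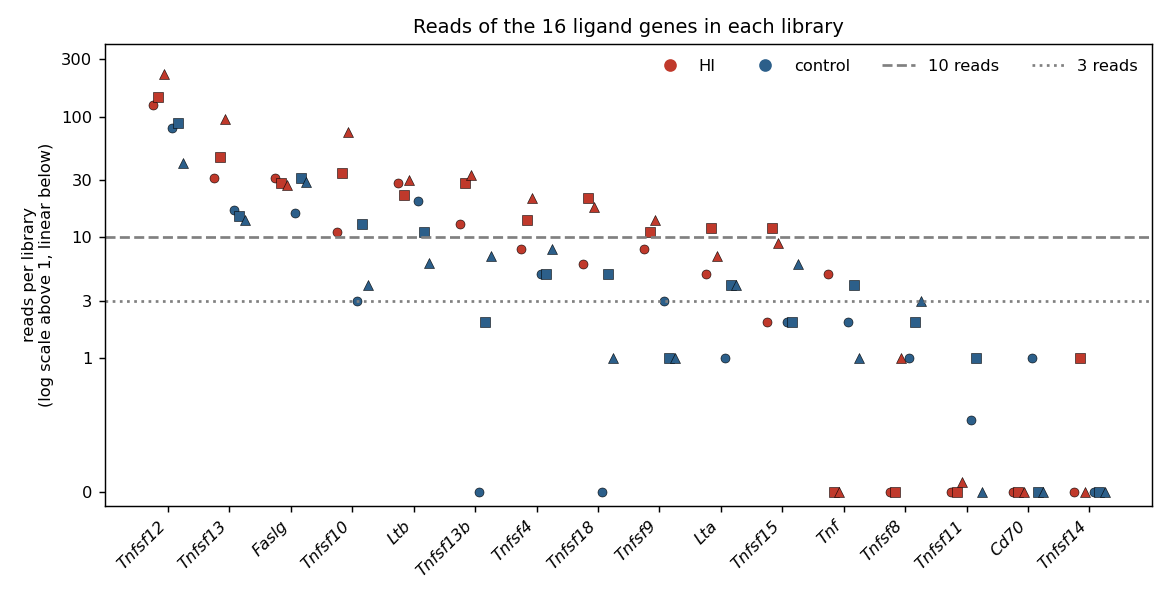
Estimated reads (y axis, log scale above 1 and linear below) of the 16 ligand genes in each HI (red) and control (blue) library, with circles, squares and triangles for replicates 1, 2 and 3. The dotted and dashed lines mark 3 and 10 reads; Tnf, Cd70, Tnfsf8, Tnfsf11 and Tnfsf14 stay below 10 reads everywhere.

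Tnfsf13, called APRIL, a survival factor of B lineage cells, stood at 2.07, 2.96 and 5.82 CPM in HI, against 1.29, 1.10 and 1.05 CPM in the controls. Its groups were separate, but the HI values were wide apart (log2 fold change 1.65 ± 0.45 SE, edgeR adjusted p = 0.0548). Tnfsf12, called TWEAK, the ligand of Tnfrsf12a, stood at 8.36, 9.38 and 13.6 CPM in HI, against 6.13, 6.55 and 3.07 CPM in the controls, and did not pass (log2 fold change 0.99 ± 0.35 SE, edgeR adjusted p = 0.0946). Tnfrsf12a reads were 0.536, 0.877 and 0.750 of the Tnfsf12 reads in HI, against 0.247, 0.0562 and 0.341 in the controls, so this receptor was higher relative to its ligand in every HI library. Tnfsf12 and Tnfsf13 are neighbours in the reference annotation and both overlap an Eif4a1-like gene there, and although their counts were whole, how reads of such overlaps were assigned is not given in the sources used here.

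Tnfsf13b, called BAFF, had 13, 28 and 33 reads in HI, against 0, 2 and 7 in the controls (log2 fold change 2.75 ± 0.87 SE, edgeR adjusted p = 0.0747). Tnfsf10, called TRAIL, an interferon-inducible ligand of death receptors, stood at 0.736, 2.18 and 4.54 CPM in HI, against 0.227, 0.957 and 0.299 CPM in the controls. HI 1 lay below control 2, and Tnfsf10 did not pass (log2 fold change 2.31 ± 0.82 SE, edgeR adjusted p = 0.0970). Ltb, a subunit of the heterotrimer that binds Ltbr, had 28, 22.24 and 30 reads in HI, against 20, 11 and 6.09 in the controls (edgeR adjusted p = 0.229). Entries that are not whole show that reads of Ltb, Lta and Tnfsf11 were divided with other genes, so their values are uncertain.

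Some untested ligands had separate groups at low counts, and these are named after their values were seen. Tnfsf9, the 4-1BB ligand, had 8, 11 and 14 reads in HI, against 3, 1 and 1 in the controls (edgeR adjusted p = 0.0593 in a fit without the filter). Tnfsf18, the GITR ligand, had 6, 21 and 18 reads in HI, against 0, 5 and 1 in the controls (edgeR adjusted p = 0.129 in that fit). Lta, which forms lymphotoxin with Ltb, had 5, 12.05 and 7 reads in HI, against 1, 4.06 and 4 in the controls. Tnfsf8, the CD30 ligand, had 0, 0 and 1 reads in HI, against 1, 2 and 3 in the controls. HI 3 and control 1 both held 1 read, so Tnfsf8 was lower in HI only once scaled to library size. The receptors of Tnfsf9 and Tnfsf18, Tnfrsf9 and Tnfrsf18, had at most 14 and 2 reads in any library.

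All 13 adaptors could be tested, and only Traf4 passed, as lower, while 7.04% of all tested genes were called lower. Traf4, an atypical Traf protein of developing epithelia and the nervous system, stood at 55.3, 54.4 and 61.4 CPM in HI, against 83.1, 80.1 and 76.2 CPM in the controls. The groups were separate and tight, and Traf4 fell to 0.715 of the control level (log2 fold change -0.48 ± 0.10 SE, edgeR adjusted p = 0.0299). Its sign held in every alternative run, but the call was lost with upper-quartile factors (edgeR adjusted p = 0.0504) with total counts (edgeR adjusted p = 0.0866) and with the replicate block (edgeR adjusted p = 0.0582). It was also lost without control 1, control 2 or HI 2 (edgeR adjusted p from 0.103 to 0.106).

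Tradd, the adaptor that links Tnfrsf1a to Ripk1, stood at 2.07, 2.96 and 4.18 CPM in HI, against 0.984, 1.25 and 1.35 CPM in the controls. All HI libraries were above all controls, and Tradd missed the threshold (log2 fold change 1.36 ± 0.36 SE, edgeR adjusted p = 0.0531). Fadd, which bridges Fas to caspase-8, stood at 1.60, 1.99 and 2.12 CPM in HI, against 1.59, 1.18 and 1.27 CPM in the controls (edgeR adjusted p = 0.272). Its HI 1 value was close to control 1. Traf2, the ubiquitin ligase adaptor of both Tnf receptors, stood at 8.56, 13.8 and 15.1 CPM in HI, against 7.35, 8.47 and 8.54 CPM in the controls, with HI 1 just above control 3 (log2 fold change 0.62 ± 0.25 SE, edgeR adjusted p = 0.124). Traf3, which restrains the alternative NF-kB pathway, stood at 147, 154 and 130 CPM in HI, against 80.4, 89.8 and 122 CPM in the controls, also without overlap (log2 fold change 0.56 ± 0.17 SE, edgeR adjusted p = 0.0710). The remaining 8 adaptors, Traf1, Traf5, Traf6, Traf7, Tank and 3 Traf3-interacting proteins, overlapped between the groups, with log2 fold changes from -0.19 for Traf6 to 0.79 for Traf1.

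Of the 4 receptor-interacting kinases, Ripk3 was the one that passed, while 6.83% of all tested genes were called higher. Ripk3, which phosphorylates Mlkl in necroptosis, stood at 3.54, 11.2 and 12.2 CPM in HI, against 0.984, 1.10 and 1.27 CPM in the controls. HI 2 and HI 3 were about equal and HI 1 much lower, and Ripk3 rose 7.95-fold (log2 fold change 2.99 ± 0.51 SE, edgeR adjusted p = 0.0243). In the reference annotation Ripk3 overlaps Nfatc4, which had 43, 53 and 116 reads in HI, against 13, 31 and 24 in the controls, while Ripk3 had 53, 174 and 201 reads in HI, against 13, 15 and 17 in the controls. Whether strand was used in counting is not given in the sources used here, so some reads of these 2 genes may be exchanged. Ripk1, the kinase that decides between survival and death downstream of Tnfrsf1a, stood at 16.6, 20.7 and 25.4 CPM in HI, against 16.7, 15.9 and 15.2 CPM in the controls, and HI 1 lay within the controls (log2 fold change 0.39 ± 0.18 SE, edgeR adjusted p = 0.174). The ratio of Ripk3 to Ripk1 reads was 0.214, 0.540 and 0.479 in HI, against 0.0588, 0.0694 and 0.0837 in the controls. Ripk2, of the Nod pathway, and Ripk4 overlapped between the groups.

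Of 10 tested genes named for induction by Tnf or for binding its inhibitor A20, 1 rose and none fell. Over all tested genes 6.83% were called higher and 7.04% lower. Tnip2, also called ABIN-2, which binds A20 and restrains NF-kB, stood at 6.08, 9.38 and 11.8 CPM in HI, against 3.56, 2.80 and 4.57 CPM in the controls. The groups were separate, and Tnip2 rose 2.49-fold (log2 fold change 1.32 ± 0.32 SE, edgeR adjusted p = 0.0448). Its relative Tnip1 stood at 32.1, 39.0 and 39.1 CPM in HI, against 29.8, 26.1 and 26.1 CPM in the controls (log2 fold change 0.43 ± 0.13 SE, edgeR adjusted p = 0.0678). Tnfaip3, which encodes A20 and is a standard NF-kB target, stood at 10.6, 19.3 and 21.1 CPM in HI, against 14.8, 14.8 and 20.5 CPM in the controls. HI libraries lay on both sides of the controls, and its log2 fold change was 0.02 ± 0.29 SE (edgeR adjusted p = 0.963), with a sign that changed between scalings. Tnfaip1 averaged 123 ± 6.72 CPM in HI and 123 ± 12.1 CPM in the controls (SD, n = 3 each). Tnfaip8 and its relative Tnfaip8l2, regulators of lipid signalling and immune tone, had all HI libraries above all controls and did not pass (edgeR adjusted p = 0.109 and 0.0679). Tnfaip2, Tnfaip6, Tnfaip8l1 and Tnfaip8l3 overlapped between the groups, and Tnip3, too low to test, had 1, 3 and 1 reads in HI, against 0 in every control.

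**Figure D4:**
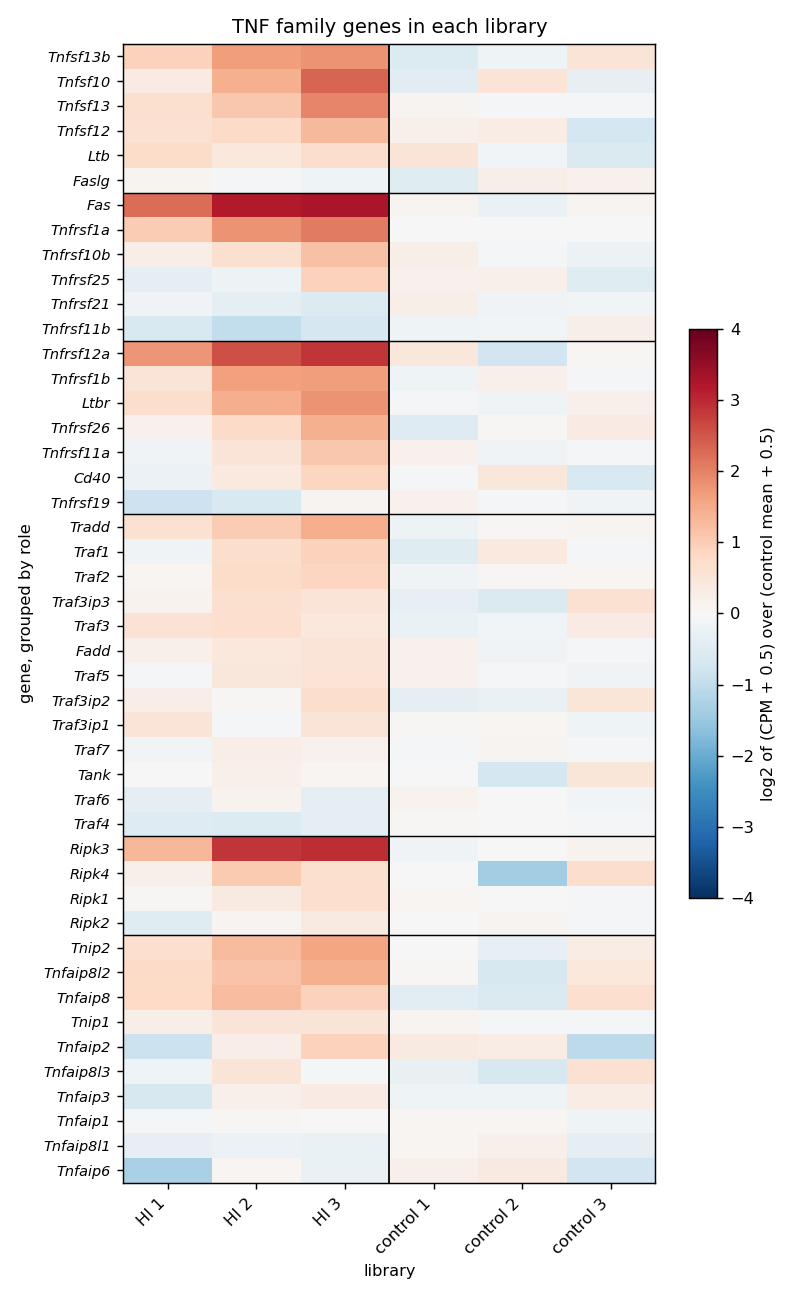
Level of each of the 46 tested family genes (rows, grouped by role) in each library (columns, HI left of control), as the log2 of CPM + 0.5 over the control mean + 0.5. Fas, Ripk3 and Tnfrsf12a are the darkest rows, and HI 1 is paler than HI 2 and HI 3 in most rows that are red.

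The HI libraries shared an order in most family genes above the controls. In each of the 7 genes that rose, HI 1 was lowest and HI 3 highest. That order also held in 27 of the 37 tested genes with a log2 fold change above 0, and in 705 (69.0%) of all 1021 genes called higher. Medians over the 46 tested genes, on the log2 scale relative to the control mean, were 0.15, 0.51 and 0.71 in HI 1, 2 and 3, against -0.01, -0.04 and -0.06 in controls 1, 2 and 3.

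Microglia markers rose along with these family genes, and several other marker lists had the same order of HI libraries. Of 14 such markers 12 rose, and their summed level was 411, 551 and 694 CPM in HI 1, 2 and 3, against 163, 176 and 246 CPM in the controls. P2ry12 and Tmem119, markers of resting microglia, were the exceptions. Border macrophage markers summed to between 20.4 and 59.3 CPM in HI and between 9.31 and 18.9 CPM in the controls (3 of 5 tested rose). Endothelial markers summed to 169, 283 and 347 CPM in HI 1, 2 and 3, against 154, 211 and 207 CPM in the controls (1 of 8 rose). Markers of mural cells and fibroblasts summed to 252, 274 and 744 CPM in HI, against 85.3, 285 and 98.6 CPM in the controls (1 of 8 rose). In both lists, and in the choroid plexus markers, HI 1 was lowest and HI 3 highest, so that order was not particular to microglia markers. Astrocyte markers showed 1 rise among 8. Among 10 neuron markers 3 fell, and among 8 oligodendrocyte lineage markers 2 fell. Of all tested genes 6.83% were called higher and 7.04% lower. The part of these cell types in the rise of the receptors was not tested.

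Most markers of blood lymphocytes and neutrophils had few reads. Cd3d, Cd3e and Cd3g, defining T-cell genes, had at most 1 read in any library, the B-cell gene Ms4a1 had at most 1 and the neutrophil gene Mpo at most 3. Of 8 T and NK cell markers 2 were tested and none rose. Lck, a T-cell kinase, had 120, 106 and 105 reads in HI, against 113, 103 and 79 in the controls. Cd6 had 5, 21.77 and 15 reads in HI, against 8, 8 and 19 in the controls. The 5 B-cell markers and the 5 neutrophil markers with a row had at most 12 reads each. Among the neutrophil markers, S100a8 had 3, 1 and 12 reads in HI, against 0 in every control. S100a9 had 4, 4 and 5 reads in HI, against 1 in every control. Both had all HI libraries above all controls and were too low to test, while Camp, Mpo and Ngp overlapped. Choroid plexus markers, of which none of 8 passed, were far higher in HI 2 and HI 3 than in HI 1. Their part in the family's values was not tested.

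**Figure D5:**
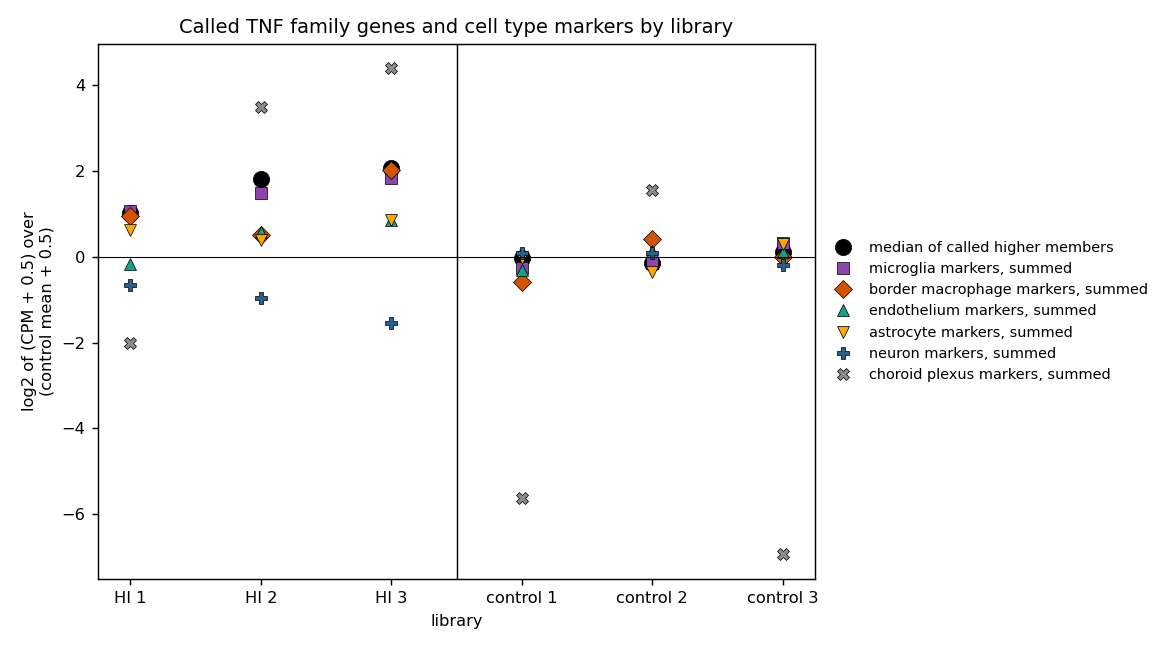
Median level of the 7 family genes that rose (black circles) and summed levels of 6 marker lists in each library, as the log2 of CPM + 0.5 over the control mean + 0.5 (y axis). The black points, for genes chosen because they rose, stand at 1.02, 1.81 and 2.08 in HI 1, 2 and 3. In the same libraries the microglia points stand at 1.08, 1.50 and 1.83 and the endothelium points at -0.17, 0.57 and 0.87. Markers of mural cells and fibroblasts, not drawn, stood at 0.69, 0.81 and 2.25 there. Choroid plexus points range from -6.94 to 4.40 over all libraries.

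Other genes of the pathway, which are not in the family, were read from 4 lists. Their counts stand beside 6.83% of all tested genes called higher and 7.04% called lower. Of 20 ubiquitin ligases, deubiquitinases and kinases of the receptor complexes 2 rose and 1 fell, with a median log2 fold change of 0.12. Birc3, the inducible ubiquitin ligase of Tnf receptor complexes, averaged 2.75 ± 1.77 CPM in HI and 0.573 ± 0.117 CPM in the controls (edgeR adjusted p = 0.0427), and Tab2, which couples ubiquitin chains to a kinase, rose 1.29-fold. Cyld, the deubiquitinase that promotes Ripk1-dependent death, averaged 39.7 ± 3.61 CPM in HI and 56.8 ± 1.37 CPM in the controls, and fell to 0.699 of the control level (edgeR adjusted p = 0.0328).

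Casp8, the initiator protease that Fadd recruits, and Mlkl, the membrane-lysing target of Ripk3, did not pass (edgeR adjusted p = 0.0825 and 0.238). They belong to a list of death effectors whose 8 tested genes had a median log2 fold change of 0.24. Of 10 NF-kB subunits and inhibitors, Nfkb2 and Bcl3 rose and none fell, with a median of 1.03, or 0.83 without Bcl3. Of 16 tested Tnf and NF-kB target genes 5 rose and none fell, with a median of 2.03, also with Cxcl10, which had no control read, set to its lower bound. Of these 16, 5 had fewer than 10 reads in every control and were tested because of their reads in HI, and the other 11 had 2 calls and a median of 1.51. Those that rose were Icam1, an adhesion molecule for leukocytes (7.05-fold), Bcl2a1, a survival protein of myeloid cells (8.70-fold), Mmp9 (11.1-fold), Csf1 (2.91-fold) and Birc3. Mmp9, Bcl2a1, Birc3 and Bcl3 held 9 reads or fewer in each control, which leaves the sizes of their folds uncertain. All 4 lists together held 58 genes, of which 52 were tested, 9 rose and 2 fell, while 6.83% of all tested genes rose and 7.04% fell.

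The regions before the start sites of Fas, Ripk3 and Tnfrsf1b, which rose, and of Tnfaip3, which did not pass, are shown for their AP-1 and NF-kB matches. Of the 67 genes 54 matched a RefSeq promoter window of assembly GRCr8 by gene number, and 250 bases before the start were searched on both strands for 5 motifs, the AP-1 motif TGANTCA and the NF-kB consensus among them. The NF-kB motif was in 3.54% of all 33469 windows and in 9 of the 56 family windows. These belonged to 9 genes, Tnfaip3, Tnip1 and Traf3 among them. No match was found for the 8 genes past the threshold, and a gene without a window was not searched. The genes past the threshold are too few to show whether the motif was rarer among them, and this was not tested. The AP-1 motif was in 6.34% of all windows and in those of 9 family genes, 3 of which rose. The Sp1 motif GGGCGG was in 30.5% of all windows and in 30 of the 56 family windows, those of 30 genes, 6 of them past the threshold. The STAT motif TTCNNNGAA was in 7.67% of all windows and in 6 of the 56 family windows, those of 6 genes, 2 of them past the threshold. The IRF motif, a GAAA repeat with 2 bases between, was in 3.41% of all windows and in 3 of the 56, those of 3 genes, 1 of them past the threshold. Capitals mark AP-1 and NF-kB matches, 5′ to 3′ on the gene's strand.
Fas, chr1:241211905-241212154, plus strand, 1 AP-1 match: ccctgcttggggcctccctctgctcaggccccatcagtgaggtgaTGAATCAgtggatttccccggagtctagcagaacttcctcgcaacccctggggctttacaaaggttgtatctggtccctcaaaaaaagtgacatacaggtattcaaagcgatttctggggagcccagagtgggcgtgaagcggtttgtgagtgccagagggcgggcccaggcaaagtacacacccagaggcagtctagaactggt
Ripk3, chr15:33262026-33262275, minus strand, 1 AP-1 match: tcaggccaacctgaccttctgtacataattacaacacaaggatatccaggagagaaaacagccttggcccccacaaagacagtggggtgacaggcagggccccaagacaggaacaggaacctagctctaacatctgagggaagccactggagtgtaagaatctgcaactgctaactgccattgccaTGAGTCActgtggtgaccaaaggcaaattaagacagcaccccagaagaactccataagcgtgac
Tnfrsf1b, chr5:162387412-162387661, minus strand, 1 AP-1 match: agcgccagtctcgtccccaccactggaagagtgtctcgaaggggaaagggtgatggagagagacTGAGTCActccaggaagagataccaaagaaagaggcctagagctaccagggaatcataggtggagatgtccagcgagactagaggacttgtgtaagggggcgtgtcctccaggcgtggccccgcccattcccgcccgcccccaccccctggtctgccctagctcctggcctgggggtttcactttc
Tnfaip3, chr1:15543980-15544229, minus strand, 1 AP-1 match followed by 3 NF-kB matches: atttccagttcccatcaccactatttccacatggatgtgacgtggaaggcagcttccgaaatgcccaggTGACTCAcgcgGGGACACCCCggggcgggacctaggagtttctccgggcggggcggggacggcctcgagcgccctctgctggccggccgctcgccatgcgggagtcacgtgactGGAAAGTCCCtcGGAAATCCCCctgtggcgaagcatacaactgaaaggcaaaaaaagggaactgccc
The matches are descriptions of letters in these windows, and a window without one says nothing of the factor.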

How the data were processed

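Total RNA of rat brain tissue was extracted with TRIzol and a SMARTER mRNA-Seq kit was used for the libraries, per the labels' protocols. HISAT2 2.1.0, SAMtools 1.10, StringTie 2.2.1 and assembly Rnor 6.0 are named in the submitters' processing notes. Not given in the sources used here are the annotation and the counting step with its use of strand. The table the authors deposited holds estimated counts per gene, unscaled, for 6 libraries, and 2410 genes have entries that are not whole to within 1e-09. Groups and replicate numbers came from the sample titles. No library pair was a duplicate (chi-square per degree of freedom of at least 13.4 between any pair, over genes with at least 10 reads in it).

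Counts were rounded, filtered with filterByExpr of edgeR 4.0.16 (minimum count 10), scaled by TMM and tested with the edgeR quasi-likelihood F test (R 4.3.3), which is two-sided. The model held group alone, with Benjamini-Hochberg adjustment across the 14959 genes tested. SE was derived from the F statistic. Alternatives were other scalings, DESeq2 1.42.0, limma-voom (limma 3.58.1), other filters, adjusted p thresholds of 0.01 and 0.1, a fit blocked on replicate number, and omission of single libraries. The fits were checked on counts drawn with known changes. Family members, lists and the rule for named genes were chosen with earlier results of these data known. That rule gives every member past the threshold, 14 fixed members, and in each role the 2 with the smallest p and the 1 with the highest level; from each list it gives up to 6 called genes. Gene names beyond it, and the ratios between genes, were chosen after their values were seen. Gene spans came from a reference table of assembly GRCr8, which held all 67 members and in which 11 overlap another protein-coding gene (Ripk1, Ripk3, Tnfaip8l1, Tnfaip8l2, Tnfrsf10b, Tnfrsf1b, Tnfrsf8, Tnfsf12, Tnfsf13, Tradd and Traf3ip3), so their reads may be exchanged with it. Some genes of the death effector list are not reported here.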

Additional observations from a re-analysis of the deposited data

How the results depend on the processing

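Both DESeq2 size factors and a filter on CPM (1 or more in 3 or more libraries) gave 7 higher family genes, with 2 lower ones under those size factors. Higher family genes numbered 15 with the DESeq2 Wald test, 15 at an adjusted p below 0.1, 12 with total counts, 11 with upper-quartile factors, 5 without a filter, where Tnfrsf1b and Tnip2 were not called (edgeR adjusted p = 0.0535 and 0.0503), 3 with limma-voom and 0 at an adjusted p below 0.01. Lower ones numbered 2 with the Wald test and below 0.1, and 0 with total counts, upper-quartile factors and below 0.01. Over all genes these were 4200 calls with the Wald test, 4366 below 0.1, 1371 with limma-voom and 0 below 0.01, against 2074 as reported, and the pathway lists had 24, 25, 6 and 0 called genes, against 11. Leaving out 1 library gave between 0 and 3689 called genes, 0 and 13 higher family genes, 0 and 2 lower ones, and 0 and 24 pathway genes. The 8 called genes kept their sign in all 16 alternatives, which their choice on these libraries largely fixed. Fas and Tnfrsf1a passed in 12 of the 16 and Tnfrsf1b and Tnip2 in 7, and the 14 named genes not called as reported passed in 0 to 5.

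Same-numbered HI and control libraries had correlations of their deviations of 0.23, 0.08 and -0.16. Those between libraries of unlike number ran from -0.36 to 0.33, so these values cannot settle whether the numbers mark pairs. With the replicate block 4 family genes (Fas, Tnfrsf1a, Ripk3 and Ltbr) were higher and 0 lower.

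Tnfaip1 and Tnfaip3, neither called in any of these fits, changed sign, and their cause was not tested. Log2 fold changes of Tnfaip1 were 0.096 with upper-quartile factors, 0.20 with total counts, 0.0025 with limma-voom, 0.0033 with the CPM filter, 0.0027 with the replicate block and between -0.12 and 0.038 without 1 library. Those of Tnfaip3 were -0.0033 with DESeq2 size factors, -0.0032 with the Wald test, -0.012 with limma-voom, -0.027 without a filter, -0.020 with the replicate block and between -0.16 and 0.27 without 1 library. Depth limits Tnf and 20 other family genes, which were not tested.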

Other observations

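Fas has the smooth muscle actin gene Acta2 and the cholesterol hydroxylase gene Ch25h as its nearest protein-coding neighbours, and both of these rose, Acta2 5.62-fold and Ch25h 4.28-fold (edgeR adjusted p = 0.0358 and 0.0430). Tnfrsf1a and Ltbr, which both rose, lie on either side of Scnn1a, an epithelial sodium channel subunit, which had 30, 24 and 18 reads in HI, against 8, 5 and 23 in the controls, and did not pass (edgeR adjusted p = 0.387). These neighbours were chosen after their values were seen.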
